A study of Homo sapiens with 9 samples.

Results

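The transforming growth factor beta (TGF-beta) genes described here are the ligands TGFB1, TGFB2 and TGFB3, the receptors TGFBR1 and TGFBR2, the latent TGF-beta binding protein genes LTBP1 and LTBP2, the TGF-beta-induced matrix protein gene TGFBI and the inhibitory SMAD7. They were taken by gene symbol, and all 9 were found among the 27730 symbols of the deposited table. HUES9, an established human embryonic stem cell line, was measured by RNA sequencing in 9 libraries from 3 groups of 3. The AA147 group was collected at day 13 of embryoid body differentiation in medium with 10 µM AA147, which the labels describe as an activator of the ATF6 arm of the unfolded protein response. The RP22 group was collected at the same day with 10 µM RP22, described as an analog of AA147 without that activity. The day 1 group was collected at day 1 with no agent. In all groups the line had been kept on mitomycin-treated mouse fibroblast feeders with FGF2, and differentiation started as centrifuged embryoid bodies without FGF2. The embryoid bodies were later plated on Matrigel. Comparisons with day 1 cannot separate the agent from time in culture or from such later steps. The design set the AA147 and RP22 cultures against each other at day 13 and each against the cells before treatment.

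TGF-beta ligands are secreted in a latent form, in which the propeptide stays bound to the ligand and is tethered by latent TGF-beta binding proteins to fibrillin-containing matrix. For TGFB1, integrins, thrombospondin 1 and proteases release the ligand, which binds TGFBR2, and TGFBR2 then phosphorylates TGFBR1. These first steps are not the same for every ligand. TGFBR1 phosphorylates SMAD2 and SMAD3, which enter the nucleus with SMAD4 and switch on genes for matrix and cytoskeletal proteins as well as SMAD7, an inhibitor that acts back on the receptors. In embryonic cells the pathway is known for its part in epithelial to mesenchymal transition and in smooth muscle and fibroblast differentiation.

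The promoter windows of the genes whose levels separated the groups most, or that encode the ligands, are shown because the members moved together. They come from RefSeq (build GRCh38.p14) and run from 250 bases before to 50 bases after an annotated start, 5′ to 3′ on the gene's strand. All 9 members matched an entry. TGFB1 lies at chr19:41353873-41354172 on the minus strand, TGFB2 at chr1:218345086-218345385 on the plus strand, and TGFBI at chr5:136028738-136029037 on the plus strand. TGFB3 has 2 annotated starts on the minus strand, with windows at chr14:75982962-75983261 and chr14:75981946-75982245. Capitals mark the TATA box TATAAA, the GC box GGGCGG, the unfolded protein response core TGACGTG and the SMAD box CAGAC, on either strand.
TGFB1: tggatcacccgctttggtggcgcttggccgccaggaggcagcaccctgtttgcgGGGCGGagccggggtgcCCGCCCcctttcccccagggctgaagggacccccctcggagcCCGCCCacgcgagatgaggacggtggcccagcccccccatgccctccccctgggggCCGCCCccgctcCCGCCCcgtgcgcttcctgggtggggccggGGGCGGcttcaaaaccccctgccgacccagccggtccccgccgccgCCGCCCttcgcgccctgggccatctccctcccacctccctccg
TGFB2: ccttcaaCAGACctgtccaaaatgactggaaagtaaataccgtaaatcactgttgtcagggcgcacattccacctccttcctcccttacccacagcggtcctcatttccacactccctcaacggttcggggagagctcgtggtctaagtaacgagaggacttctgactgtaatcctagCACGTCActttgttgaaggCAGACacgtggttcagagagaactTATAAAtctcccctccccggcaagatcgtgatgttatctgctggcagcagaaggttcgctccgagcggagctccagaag
TGFB3, first window: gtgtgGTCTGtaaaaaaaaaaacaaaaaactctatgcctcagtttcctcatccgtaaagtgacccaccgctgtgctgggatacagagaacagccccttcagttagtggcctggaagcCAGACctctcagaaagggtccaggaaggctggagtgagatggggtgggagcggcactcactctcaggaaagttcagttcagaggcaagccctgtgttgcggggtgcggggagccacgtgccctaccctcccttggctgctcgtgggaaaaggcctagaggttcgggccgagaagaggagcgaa
TGFB3, second window: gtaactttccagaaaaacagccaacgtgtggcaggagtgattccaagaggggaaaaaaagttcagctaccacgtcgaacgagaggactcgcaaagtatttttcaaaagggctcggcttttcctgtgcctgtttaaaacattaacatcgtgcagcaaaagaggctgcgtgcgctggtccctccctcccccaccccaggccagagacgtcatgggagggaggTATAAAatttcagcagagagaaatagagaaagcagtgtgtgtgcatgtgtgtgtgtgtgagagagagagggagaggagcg
TGFBI: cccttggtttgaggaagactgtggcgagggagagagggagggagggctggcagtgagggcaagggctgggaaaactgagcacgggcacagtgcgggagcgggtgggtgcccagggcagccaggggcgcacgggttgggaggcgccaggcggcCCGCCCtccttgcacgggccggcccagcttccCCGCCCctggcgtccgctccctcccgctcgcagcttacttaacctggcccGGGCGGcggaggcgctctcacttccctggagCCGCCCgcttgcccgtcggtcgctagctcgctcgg
The windows differ in make-up. The TGFB1 window was 77.3% G or C and held 7 matches to the GC box, and the TGFBI window was 72.7% G or C and held 4. The TGFB2 window was 51.7% G or C, held no GC box and had the TATA box letters TATAAA at -29 from the start. The second TGFB3 window had TATAAA at -30. Over the windows of all genes, 11.5% of 35116 held a TATA box of these letters and 45.0% held a GC box. TGACGTG, the core of the unfolded protein response element that ATF6 is known to bind, was found at -72 on the minus strand of the TGFB2 window and in no window of the other members, against 1.97% of all windows. The longer endoplasmic reticulum stress element, searched on both strands like the others, was in 0.0769% of all windows and in none of the members. TGACGTCA, the cAMP response element, which begins with the same letters as TGACGTG, was in 1.85% of all windows and in LTBP1. The E box CACGTG was in 7.26% of all windows and in TGFB2 and TGFB3. The SMAD box CAGAC was in 45.3% of all windows and in 12 of the 22 windows of the members, and the palindrome GTCTAGAC was in 0.202% and in no member. Such matches describe letters in these windows and are not evidence of binding.

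Each library held between 9223027 and 10118258 reads assigned to genes. Levels are given as CPM, the reads of a gene set against all reads of its library, scaled by the trimmed mean of M values (TMM) over the 9 libraries, and levels of different genes are set side by side only as deposited RPKM, which is scaled to gene length. Summed pluripotency markers, which include POU5F1, SOX2 and NANOG, stood at 127 to 158 CPM in AA147 libraries and 394 to 682 CPM in RP22 libraries, against 6405 to 7254 CPM at day 1, and NANOG had no reads in the AA147 libraries. ZFP42, the largest part of the AA147 sum, went the other way between the day 13 groups. It averaged 81.5 ± 9.52 CPM in AA147 cultures, 53.4 ± 1.03 CPM in RP22 cultures and 205 ± 13.4 CPM at day 1 (SD, n = 3 each). Replicate 1 was the library farthest from the others in every group, most of all in RP22. By chi-square per degree of freedom, AA147 replicate 1 differed from replicates 2 and 3 by 10.4 and 11.0, against 5.29 between these, and RP22 replicate 1 by 29.3 and 28.2, against 2.45. At day 1 the values were 14.5 and 8.87, against 3.80. In RP22 replicate 1 the summed mesenchyme and fibroblast markers (PDGFRA, PDGFRB, THY1, TWIST1, PRRX1, LUM and PDPN) reached 1452 CPM, against 509 and 558 CPM in the other RP22 libraries. That library also had the highest RP22 sum of endothelial markers (listed below), at 179 CPM against 85.3 and 108 CPM. Its pluripotency sum was the lowest of the group, at 394 CPM against 615 and 682 CPM. Reads of mouse feeder cells cannot be separated in the tables. These are bulk samples, so fewer cells that make an mRNA and less mRNA per cell cannot be told apart.

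At day 13, 8 of the 9 genes were higher in AA147 cultures than in RP22 cultures, none was lower, and TGFBR2 did not pass the test. TGFBI rose most, 14.2-fold (95% interval 10.3 to 19.7), and TGFB2 next, 7.83-fold (6.54 to 9.37). LTBP2 rose 3.64-fold, TGFB1, LTBP1 and TGFBR1 between 2.32-fold and 2.44-fold, SMAD7 2.05-fold and TGFB3 1.68-fold. The test was edgeR's quasi-likelihood test with Benjamini-Hochberg adjustment over 14293 genes, at an adjusted p of 0.05, and the background was high: 29.8% of all genes tested rose by the same rule, 32.2% fell and 62.0% were called in either direction. The median log2 fold change of the 9 genes was 1.26, against -0.03 over all genes tested. In 8 of the 9 the libraries of the groups did not overlap, against 38.6% of all genes tested that were higher without overlap. Markers of other cell types moved with the same contrast. Summed smooth muscle markers (ACTA2, TAGLN, CNN1, MYH11, DES and LMOD1) stood at 3124 to 3580 CPM in AA147 libraries and 375 to 484 CPM in RP22 libraries. Summed epithelial markers (EPCAM, CDH1, KRT8, KRT18 and KRT19) stood at 6864 to 7182 CPM in AA147 libraries and 2680 to 2879 CPM in RP22 libraries. Mesenchyme and fibroblast markers ranged from 1072 to 1470 CPM in AA147 libraries and from 509 to 1452 CPM in RP22 libraries. TAGLN, ACTA2 and CNN1, which are also on the TGF-beta target list below, made up most of the smooth muscle sum, whereas DES averaged 5.92 ± 2.80 CPM in AA147 cultures and 5.89 ± 5.02 CPM in RP22 cultures, and MYH11 2.93 ± 0.503 CPM in AA147 cultures and 1.93 ± 0.722 CPM in RP22 cultures (SD, n = 3 each). LMOD1, which is not on the target list, averaged 64.1 ± 14.9 CPM in AA147 cultures and 24.9 ± 4.27 CPM in RP22 cultures. LUM carried most of the AA147 mesenchyme sum, at 986 ± 266 CPM in AA147 cultures and 505 ± 356 CPM in RP22 cultures. PDGFRB was also higher without overlap, at 142 ± 11.6 CPM in AA147 cultures and 80.7 ± 24.97 CPM in RP22 cultures. PDPN averaged 108 ± 38.3 CPM in AA147 cultures and 101 ± 73.95 CPM in RP22 cultures. PDGFRA went the other way, at 6.66 ± 4.45 CPM in AA147 cultures and 76.7 ± 41.8 CPM in RP22 cultures. The means of PRRX1, TWIST1 and THY1 were also lower in AA147 than in RP22 cultures. All of these markers had reads in both groups, and their part in the result was not tested.

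**Figure D1:**
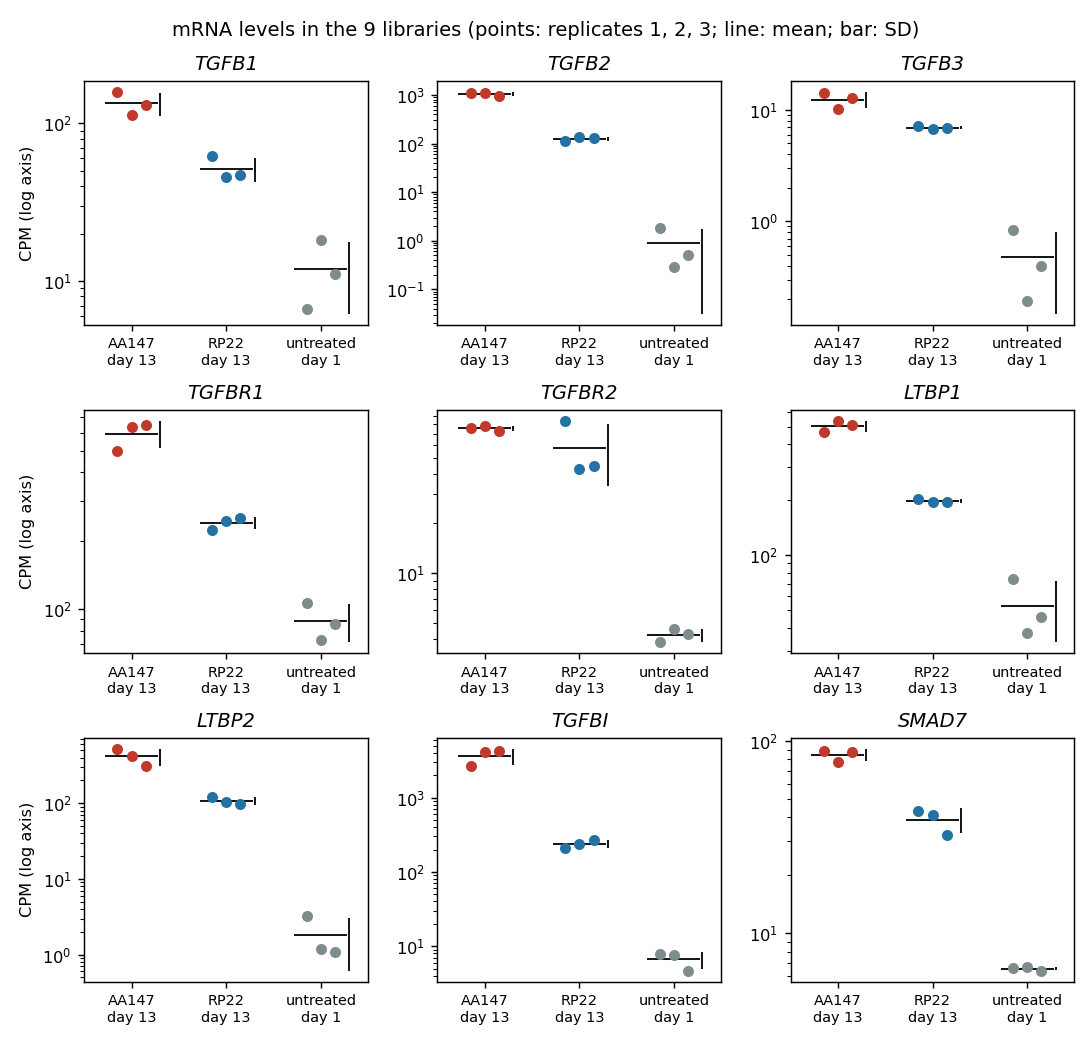
Level of each gene in CPM (TMM-scaled, log axis) in the 3 AA147, 3 RP22 and 3 day 1 libraries, each point 1 library, with the group mean as a line and the SD as a bar. AA147 libraries lie above RP22 libraries for 8 genes, and for TGFBR2 the RP22 replicate 1 point, at 84.1 CPM, lies above all AA147 points.

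TGFB2, a ligand needed for heart and craniofacial development in mice, had 1107, 1102 and 947 CPM in AA147 libraries, against 112, 137 and 129 CPM in RP22 libraries and 1.86, 0.292 and 0.498 CPM at day 1. All AA147 values lay far above all RP22 values, and these above day 1. Its log2 fold change was 2.97 (SE 0.112, edgeR adjusted p = 2.1e-06) between AA147 and RP22. At day 1 the gene rested on 20, 3 and 5 reads. In RefSeq an antisense gene, TGFB2-AS1, overlaps TGFB2, and the strand setting of the counting is not given in the sources used here, so reads of the pair cannot be told apart.

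TGFB1, the ligand that acts widely in immune and connective tissue, had 158, 113 and 131 CPM in AA147 libraries, against 62.0, 45.9 and 47.3 CPM in RP22 libraries and 6.70, 18.2 and 11.2 CPM at day 1. The groups did not overlap, though the day 1 libraries spread more widely than those of the other groups for their level. The log2 fold change of AA147 over RP22 was 1.29 (SE 0.166, edgeR adjusted p = 0.00051).

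TGFB3, a ligand needed for palate fusion in mice, was the lowest of the ligands at day 13, with 14.1, 10.1 and 12.8 CPM in AA147 libraries, against 7.14, 6.70 and 6.89 CPM in RP22 libraries and 0.838, 0.195 and 0.399 CPM at day 1. The RP22 libraries lay close together and below all AA147 libraries. The log2 fold change was 0.75 (SE 0.181, edgeR adjusted p = 0.0079). This call ended when the fit used library totals in place of TMM, at a log2 fold change of 0.29 with an adjusted p of 0.19.

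That scaling matters for all small differences between these groups. With library totals alone, the middle of the distribution over all genes moved to a log2 fold change of -0.49, and 1897 genes rose and 8527 fell, against 4265 that rose and 4600 that fell with TMM. Relative to that median, TGFB3 stood at 0.78 and TGFBR2 at 0.35 on the log2 scale. The other members kept both direction and call under library totals, with log2 fold changes of 0.84 for TGFB1, 2.51 for TGFB2, 0.76 for TGFBR1, 0.81 for LTBP1, 1.41 for LTBP2, 3.37 for TGFBI and 0.58 for SMAD7.

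Ratios within a library carry no scaling between libraries. Per length, TGFB2 stood at 2.59, 3.59 and 2.67 times TGFB1 in AA147 libraries, against 0.673, 1.11 and 1.01 times in RP22 libraries and 0.103, 0.00592 and 0.0166 times at day 1. TGFB2 was thus the more abundant ligand mRNA in every AA147 library, near TGFB1 in RP22 libraries and far below it at day 1. As a share of the summed RPKM of the 3 ligands, TGFB2 held 73.2% ± 3.46 in AA147 cultures, 45.6% ± 6.22 in RP22 cultures and 3.64% ± 4.44 at day 1 (SD, n = 3 each). TGFB1 held 25.2% ± 3.26 in AA147 cultures, 49.99% ± 6.35 in RP22 cultures and 93.1% ± 7.60 at day 1. TGFB3 held 1.52% ± 0.212 in AA147 cultures, 4.45% ± 0.186 in RP22 cultures and 3.28% ± 3.18 at day 1. The summed RPKM of the ligands was 214.9, 187.5 and 175.0 in AA147 libraries, against 55.1, 54.5 and 53.8 in RP22 libraries and 3.89, 9.07 and 5.70 at day 1. Unlike the ratios, these sums depend on scaling between libraries, and RPKM carries no correction for library composition. The TMM factors used for CPM were 0.783 to 0.821 in AA147 libraries and 1.12 to 1.19 in RP22 libraries. The day 1 shares rested on 101, 192 and 121 ligand reads, and without day 1 replicate 1 they were 1.09% for TGFB2 and 1.503% for TGFB3. The shares are a description and were not tested.

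**Figure D2:**
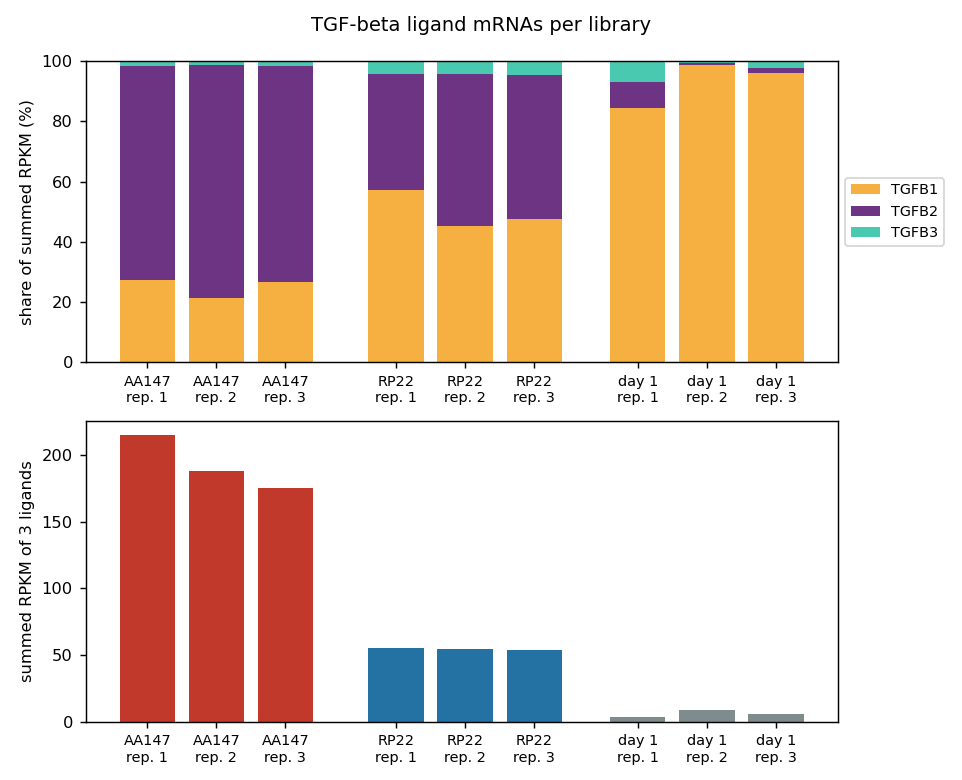
Upper panel, share of TGFB1, TGFB2 and TGFB3 in their summed RPKM (percent) per library. Lower panel, the summed RPKM of the 3 ligands, with AA147, RP22 and day 1 libraries from left to right: TGFB2 makes up 71.0% to 77.2% of the sum in AA147 libraries and 0.584% to 8.73% at day 1.

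The receptors differed from each other. TGFBR1, the kinase that phosphorylates SMAD2 and SMAD3, had 498, 636 and 648 CPM in AA147 libraries, against 224, 244 and 251 CPM in RP22 libraries and 106, 72.8 and 85.7 CPM at day 1. The groups were separate, with a log2 fold change of 1.21 for AA147 over RP22 (SE 0.107, edgeR adjusted p = 5.9e-05). TGFBR1 also had the smallest fold change of the members against day 1, in AA147 and in RP22 cultures.

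TGFBR2, the receptor that TGFB1 binds first, had 76.0, 78.0 and 72.6 CPM in AA147 libraries, against 84.1, 43.0 and 44.4 CPM in RP22 libraries and 3.82, 4.58 and 4.29 CPM at day 1. The AA147 libraries lay between RP22 replicate 1 and the other RP22 libraries. The log2 fold change of AA147 over RP22 was 0.31 (SE 0.270, 95% interval -0.35 to 0.97, edgeR adjusted p = 0.36). Without RP22 replicate 1, the library farthest from the others of its group, it was 0.71 with an adjusted p of 4.9e-05. With library totals and all libraries it was -0.13 with an adjusted p of 0.64. Within libraries, TGFBR1 stood at 5.15, 6.41 and 7.01 times TGFBR2 per length in AA147 libraries, against 2.07, 4.46 and 4.43 times in RP22 libraries and 21.7, 12.4 and 15.6 times at day 1. The AA147 ratios were above all RP22 ratios and below all day 1 ratios.

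LTBP1 and LTBP2 encode large matrix proteins. LTBP1 binds the latent complex and holds it in the matrix, whereas LTBP2 is not known to bind latent TGF-beta and associates with elastic fibres. LTBP1 had 464, 535 and 510 CPM in AA147 libraries, against 202, 194 and 193 CPM in RP22 libraries and 74.6, 37.8 and 46.2 CPM at day 1. The day 13 replicates lay close together, and the log2 fold change of 1.26 had the smallest error of the members (SE 0.0702, edgeR adjusted p = 8.9e-06). LTBP2 had 515, 425 and 309 CPM in AA147 libraries, against 121, 104 and 96.9 CPM in RP22 libraries and 3.26, 1.17 and 1.10 CPM at day 1. The AA147 libraries spread more than the RP22 libraries but stayed above them, with a log2 fold change of 1.86 (SE 0.200, edgeR adjusted p = 0.00029). At day 1 LTBP1 stood at 35.3, 49.8 and 65.0 times LTBP2 per length. By day 13 the ratio was 1.39, 1.94 and 2.55 in AA147 libraries and 2.57, 2.88 and 3.08 in RP22 libraries, so the day 13 groups lay next to each other without overlap.

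TGFBI encodes a secreted matrix protein that binds integrins and collagens and was named for its induction by TGF-beta. It had 2657, 4092 and 4189 CPM in AA147 libraries, against 211, 239 and 269 CPM in RP22 libraries and 7.82, 7.50 and 4.69 CPM at day 1. AA147 replicate 1 was the lowest of its group and still far above every RP22 library. The log2 fold change of AA147 over RP22 was 3.83 (SE 0.199, edgeR adjusted p = 1e-05). SMAD7, which blocks TGFBR1 and recruits ubiquitin ligases to it, had 88.4, 77.7 and 87.8 CPM in AA147 libraries, against 43.0, 41.1 and 32.2 CPM in RP22 libraries and 6.61, 6.63 and 6.38 CPM at day 1. The groups were separate, with a log2 fold change of 1.04 (SE 0.119, edgeR adjusted p = 0.00021). The target and the inhibitor thus moved in the same direction by different amounts.

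Against day 1, all 9 genes rose in AA147 cultures and all 9 rose in RP22 cultures, with no overlap between libraries. By the same rule 38.7% of 13761 genes rose, 40.4% fell and 79.1% were called in either direction in AA147 cultures. In RP22 cultures 36.6% of 14558 genes rose, 35.2% fell and 71.9% were called in either direction, and 40.3% of genes in AA147 and 38.5% in RP22 cultures were higher without overlap. The comparisons use the same day 1 libraries, so their values are given side by side only. TGFB2 rose by a log2 fold change of 10.17 (SE 0.317, edgeR adjusted p = 5.5e-08) in AA147 cultures and 7.12 (SE 0.377, adjusted p = 8.3e-06) in RP22 cultures. TGFBI rose by 9.08 (SE 0.282) in AA147 cultures and 5.17 (SE 0.194) in RP22 cultures on the same scale, and LTBP2 by 7.79 (SE 0.383) in AA147 cultures and 5.85 (SE 0.321) in RP22 cultures. TGFB3 rose by 4.64 (SE 0.377) in AA147 cultures and 3.82 (SE 0.396) in RP22 cultures. TGFB2, TGFB3 and LTBP2 had few reads at day 1, and day 1 replicate 1 held most of them. Without that library TGFB2 stood at 11.33 in AA147 cultures and 8.28 in RP22 cultures, LTBP2 at 8.50 in AA147 cultures and 6.55 in RP22 cultures, and TGFB3 at 5.32 in AA147 cultures and 4.49 in RP22 cultures.

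The other members changed less. TGFBR2 rose by a log2 fold change of 4.15 (SE 0.110) in AA147 cultures and 3.76 (SE 0.324) in RP22 cultures, and SMAD7 by 3.69 (SE 0.107) in AA147 cultures and 2.58 (SE 0.144) in RP22 cultures. TGFB1 rose by 3.48 (SE 0.335) in AA147 cultures and 2.12 (SE 0.341) in RP22 cultures, and LTBP1 by 3.25 (SE 0.246) in AA147 cultures and 1.90 (SE 0.241) in RP22 cultures. TGFBR1 rose by 2.75 (SE 0.157) in AA147 cultures and 1.45 (SE 0.136) in RP22 cultures. The largest edgeR adjusted p among the 9 genes was 7.7e-05 in AA147 and 0.0015 in RP22 cultures, both for TGFB1. The median log2 fold change of the 9 genes was 4.15 in AA147 and 3.76 in RP22 cultures, against -0.04 in AA147 and 0.02 in RP22 cultures over all genes tested.

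**Figure D3:**
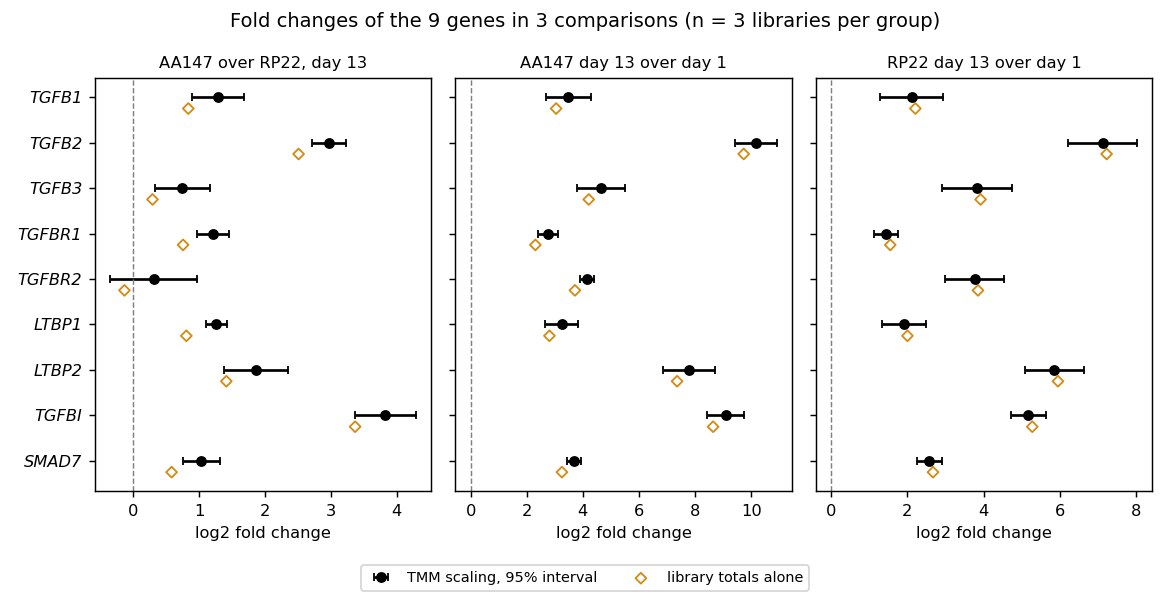
Log2 fold change of each gene with its 95% interval from edgeR (black points, TMM scaling) and the value with library totals alone (open diamonds), for AA147 over RP22, AA147 over day 1 and RP22 over day 1, 3 libraries per group. All points against day 1 lie right of 0, whereas in AA147 over RP22 the TGFBR2 interval spans 0 and its diamond lies at -0.13.

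Ordered by mean RPKM, the AA147 cultures had TGFBI first at 1031 ± 220, then TGFB2 at 140.8 ± 14.2, TGFBR1 at 78.8 ± 9.20, LTBP1 at 72.2 ± 3.44, TGFB1 at 48.7 ± 9.42, LTBP2 at 38.9 ± 10.5, SMAD7 at 26.7 ± 3.70, TGFBR2 at 12.8 ± 0.579 and TGFB3 at 2.93 ± 0.506 (SD, n = 3). TGFBR1 and LTBP1 overlapped, as did TGFB1 with LTBP2 and LTBP2 with SMAD7. In RP22 cultures the order was TGFBI at 99.6 ± 15.2, TGFBR1 at 46.6 ± 4.27, LTBP1 at 41.2 ± 0.392, TGFB1 at 27.2 ± 3.73, TGFB2 at 24.8 ± 3.20, SMAD7 at 18.4 ± 2.35, LTBP2 at 14.6 ± 1.21, TGFBR2 at 14.1 ± 5.27 and TGFB3 at 2.42 ± 0.0729 (SD, n = 3). TGFB1 overlapped TGFB2 there, and SMAD7, LTBP2 and TGFBR2 overlapped one another. At day 1 TGFBR1 came first at 15.9 ± 3.04, then LTBP1 at 10.3 ± 3.75, TGFB1 at 5.91 ± 2.86, SMAD7 at 2.72 ± 0.117, TGFBI at 2.57 ± 0.665 and TGFBR2 at 0.978 ± 0.0897 (SD, n = 3). LTBP1 overlapped both TGFBR1 and TGFB1, and SMAD7 overlapped TGFBI. LTBP2, TGFB2 and TGFB3 were last, between 0.154 and 0.232 RPKM on average, and overlapped one another. TGFB2 was therefore among the lowest members at day 1 and second only to TGFBI in AA147 cultures.

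The other genes of the pathway were read from lists by role. Of 43 such genes 41 were tested in AA147 against RP22, and 23 rose, 5 fell and 13 did not pass, against 29.8% of all genes tested that rose and 32.2% that fell. Their median was 0.57 on the log2 scale, and with library totals 18 rose and 14 fell. With that scaling 1897 of all 14293 genes tested rose and 8527 fell. Among 12 genes for activation of the latent complex 9 rose and none fell. THBS1, which encodes the activator thrombospondin 1, averaged 2631 ± 571 CPM in AA147 cultures and 319 ± 7.77 CPM in RP22 cultures (SD, n = 3 each), a log2 fold change of 2.95 (SE 0.155, edgeR adjusted p = 7.3e-06). ITGB6, the beta subunit of an epithelial integrin that releases TGFB1, averaged 3282 ± 650 CPM in AA147 cultures and 404 ± 42.3 CPM in RP22 cultures, a log2 fold change of 2.93 (SE 0.161). Its partner ITGAV averaged 2654 ± 94.2 CPM in AA147 cultures and 526 ± 6.57 CPM in RP22 cultures, a log2 fold change of 2.24 (SE 0.0756). ITGB3, another partner of ITGAV, rose by 2.83 (SE 0.178) on the same scale.

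Of 10 genes for latency and matrix binding 8 were tested, and 3 rose and 2 fell, shares near those over all genes tested (29.8% rose and 32.2% fell). FBN1, the fibrillin that anchors latent binding proteins, averaged 1325 ± 231 CPM in AA147 cultures and 157 ± 23.5 CPM in RP22 cultures, a log2 fold change of 2.98 (SE 0.154, edgeR adjusted p = 7.8e-06). FBN2, a fibrillin of developing tissue, rose by 1.00 (SE 0.128). LTBP4, a latent binding protein selective for TGFB1, fell to 23.5 ± 3.30 CPM in AA147 cultures, against 61.3 ± 14.0 CPM in RP22 cultures, with a log2 fold change of -1.47 (SE 0.195, edgeR adjusted p = 0.00057). LTBP4 thus moved opposite to LTBP1 and LTBP2. BGN, a small proteoglycan that binds TGF-beta, averaged 6.22 ± 6.63 CPM in AA147 cultures and 38.8 ± 11.7 CPM in RP22 cultures, a log2 fold change of -2.71 (SE 0.745, edgeR adjusted p = 0.025). That call ended without AA147 replicate 3 (adjusted p = 0.082) and without RP22 replicate 1, 2 or 3 (adjusted p = 0.075, 0.053 and 0.068), and the fold change reached -4.05 on the log2 scale when AA147 replicate 1 was left out.

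Of 5 genes for SMADs and their adaptor 2 rose and none fell, a share of rises near the 29.8% over all genes tested. SMAD2 averaged 168 ± 10.9 CPM in AA147 cultures and 96.0 ± 2.87 CPM in RP22 cultures, a log2 fold change of 0.71 (SE 0.0667, edgeR adjusted p = 7.9e-05), and 0.26 (adjusted p = 0.0079) with library totals. On deposited RPKM it turned to -0.20 (adjusted p = 0.36). The gene length implied by reads and RPKM ran from 4.36 to 10.4 kb between libraries for SMAD2, so its RPKM did not follow its reads. SMAD3 had a log2 fold change of 0.55 (SE 0.0916, edgeR adjusted p = 0.0012), and its call ended with library totals (0.10, adjusted p = 0.38) and on RPKM (0.09, adjusted p = 0.44). Among 13 inhibitors of the signal 9 rose and 2 fell. PMEPA1, a TGF-beta target that sequesters SMADs, averaged 312 ± 32.8 CPM in AA147 cultures and 46.3 ± 13.5 CPM in RP22 cultures, a log2 fold change of 2.66 (SE 0.202, edgeR adjusted p = 7.1e-05). The co-repressor SKIL rose by 1.59 (SE 0.0954), the pseudoreceptor BAMBI by 1.48 (SE 0.152) and the ubiquitin ligase NEDD4L by 1.38 (SE 0.101). The inhibitors that fell, named after their values were seen, were the co-repressor TGIF2 at -0.65 (SE 0.130) and the ubiquitin ligase TRIM33 at -0.35 (SE 0.0618). Of 3 other receptors none rose, and ACVRL1, an endothelial type I receptor also named after its values were seen, fell by 3.17 on the log2 scale (edgeR adjusted p = 0.018) at 0.435 ± 0.647 CPM in AA147 cultures and 3.82 ± 2.21 CPM in RP22 cultures. TGFBR3 averaged 10.6 ± 8.66 CPM in AA147 cultures and 48.1 ± 38.8 CPM in RP22 cultures. Its AA147 libraries lay below all RP22 libraries, but the log2 fold change of -2.26 (SE 0.843) did not pass the test (edgeR adjusted p = 0.066). ENG did not pass either, at -0.64 (edgeR adjusted p = 0.07). Both were named after their values were seen.

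Genes known as TGF-beta targets were read in the same way. Of 28 genes that TGF-beta induces in many cell types 21 rose, 1 fell and 6 did not pass in AA147 against RP22, beside 29.8% of all genes tested that rose and 32.2% that fell, and their median was 2.13 on the log2 fold change scale. The smooth muscle genes CNN1 and ACTA2 rose by 3.51 (SE 0.135, edgeR adjusted p = 2.2e-06) and 3.35 (SE 0.133) on the log2 scale, and both also belong to the smooth muscle marker list above. CDKN2B, a cell cycle inhibitor, averaged 599 ± 59.4 CPM in AA147 cultures and 62.3 ± 9.44 CPM in RP22 cultures, a log2 fold change of 3.17 (SE 0.127). SNAI1, a transcription factor of epithelial to mesenchymal transition and the induced target that fell, was named after its values were seen. It averaged 0.835 ± 0.644 CPM in AA147 cultures and 6.93 ± 3.38 CPM in RP22 cultures, a log2 fold change of -3.12 (SE 0.593, edgeR adjusted p = 0.0028). Of 3 genes that TGF-beta represses in many cells, ID1 fell to 11.3 ± 3.51 CPM in AA147 cultures, against 64.6 ± 3.12 CPM in RP22 cultures (log2 fold change -2.60, SE 0.207, edgeR adjusted p = 5.9e-05). ID3 fell by 0.64 (SE 0.0888) on the log2 scale, and MYC rose by 1.13 (SE 0.179).

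**Figure D4:**
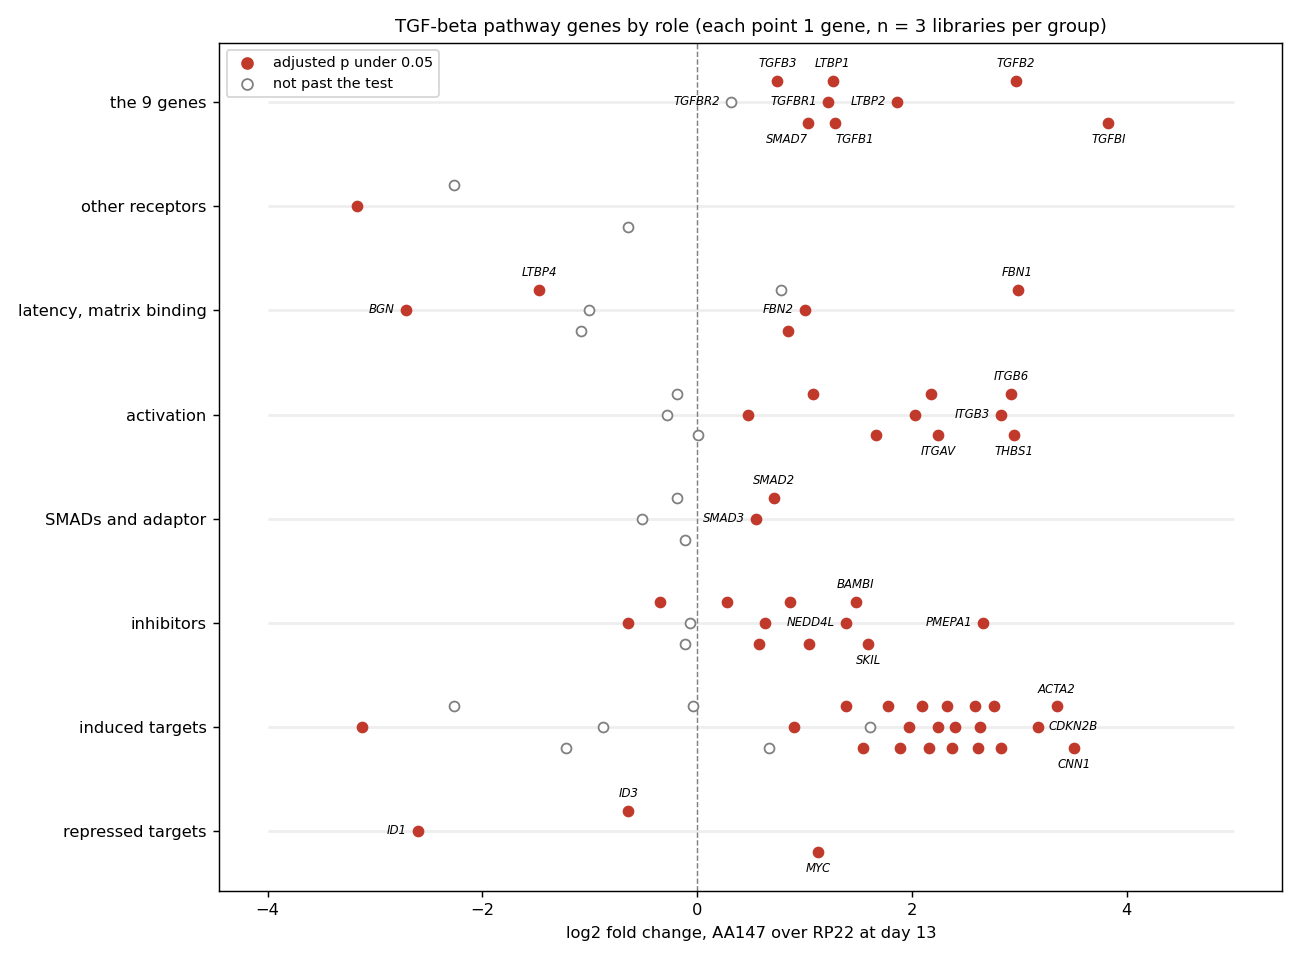
Log2 fold change of AA147 over RP22 for the 9 genes, the other pathway genes and the target genes reported here, grouped by role, 1 point a gene, filled where the edgeR adjusted p was under 0.05. All 9 members lie right of 0 with TGFBR2 open, whereas the latency and matrix binding genes spread to both sides, from BGN at -2.71 to FBN1 at 2.98.

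Against day 1, 30 of 41 tested pathway genes rose and 5 fell in AA147 cultures, and 29 of 42 rose and 7 fell in RP22 cultures. Over all genes tested 38.7% rose and 40.4% fell in AA147 cultures, and 36.6% rose and 35.2% fell in RP22 cultures. All 12 activation genes rose in each of these comparisons, and 25 of the 28 induced targets rose in each. Of the inhibitors, 9 of 13 rose in AA147 cultures and 5 of 13 in RP22 cultures, which is near the share over all genes. The comparisons share their day 1 libraries, and the difference between these counts was not tested.

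The genes whose log2 CPM followed a member most closely over the 9 libraries were found among 12934 genes by Pearson's r. The libraries fall into 3 groups, so these values describe the order of the groups more than anything within them. TGFB2 was closest to HOOK3, RNF217 and C8orf4 (r = 0.999 each). C8orf4 averaged 536 ± 69.4 CPM in AA147 cultures, 72.2 ± 12.6 CPM in RP22 cultures and 0.217 ± 0.376 CPM at day 1 (SD, n = 3 each). TGFBI was closest to THBS1, to the receptor kinase gene MET and to ARHGAP21 (r = 0.999 each), and MET averaged 366 ± 47.4 CPM in AA147 cultures, 112 ± 5.40 CPM in RP22 cultures and 23.5 ± 0.929 CPM at day 1. TGFB3 was closest to CACNB3 (r = 0.999), TMEM237 (r = 0.997) and DSC2 (r = 0.996). TGFB1 was closest to ORAI3 and ZFAND2B (r = 0.994 each) and GIT2 (r = 0.993). Among the members themselves r ran from 0.898 between TGFBR1 and TGFBR2 to 0.996 between TGFB2 and LTBP2.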

How the data were processed

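Total RNA of 9 HUES9 libraries was sequenced, and 2 tables deposited by the authors were used, one of expected counts per gene and library without scaling and one of the matching RPKM. The submitters' processing notes name GRCh37.p13 as the build. For the aligner and counter, nothing is stated (not given in the sources used here). Per the labels, the replicates are 3 independent experiments. The lowest value of the table, 0.05 reads, was read as 0 (41.4% of cells), 0.916% of cells were fractional and were rounded, and 42 symbols on 2 rows were summed. RPKM of 0.002 was read as 0 and carries no correction for library composition.

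Each comparison was fitted on its own 6 libraries with edgeR 4.0.16 in R 4.3.3 (filterByExpr, TMM, robust quasi-likelihood test), with Benjamini-Hochberg adjustment over all genes tested, at 0.05. The SE is the log2 fold change divided by the square root of F, and intervals are 95%. The code was tested on simulated data. DESeq2 1.42.0, limma 3.58.1 (voom, and log2 RPKM with 0.1 or 1 added), other scalings, no filter, a joint fit, a replicate block and left-out libraries were alternatives. Members and lists were chosen with earlier results of these data known. Of each role list, up to 4 genes past the test are named, by size of change, if the group with the higher level averaged 5 CPM or more. Depth was 9223027 to 10118258 reads a library. Intervals are for the fold change between groups and rest on the spread between these libraries. Promoter windows are from RefSeq, GRCh38.p14, and no coordinates were carried between builds. The values of 1 induced target and 1 marker list are not reported here.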

Additional observations from a re-analysis of the deposited data

How the results depend on the processing

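The fold changes of the members, and in AA147 against RP22 those of the other genes named by rule, were recomputed under 16 alternatives. Those of SNAI1, ACVRL1, TGFBR3, ENG, TGIF2 and TRIM33 were not. Against day 1, all 144 values of the members kept direction and call in each comparison. In AA147 against RP22, 136 of 144 did. TGFB3 lost its call with library totals and on log2 RPKM with 0.1 or 1 added (0.25, adjusted p = 0.23, and 0.19, adjusted p = 0.21). TGFBR2 passed the test without RP22 replicate 1 and without replicate 1 of both groups (0.69, adjusted p = 5.1e-07), and turned to -0.13 with library totals and to -0.076 and -0.075 on log2 RPKM with 0.1 and 1 added. RPKM is divided by library totals, so these settings share their scaling. SMAD2 kept its call with library totals (0.26) and turned to -0.20 and -0.19 on log2 RPKM with 0.1 and 1 added, where its implied gene length varied between libraries. That of SMAD7 ran from 2.42 to 2.71 kb. With single libraries left out, 8 to 9 members passed in AA147 against RP22 and 9 in the comparisons with day 1.

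The count of other pathway genes that fell in AA147 against RP22 was 5. It was 14 with library totals, 15 on log2 RPKM with either pseudocount, 10 without replicate 1 of both groups, 8 without AA147 replicate 1 and 3 without AA147 replicate 3. The count of target genes that fell was 3, and 6 with library totals or on log2 RPKM. Over all 14293 genes tested, 4600 fell in the main fit and 8527 with library totals. On log2 RPKM 8505 fell with 0.1 added and 8500 with 1 added. Without replicate 1 of both groups 5352 of 14514 fell. Without AA147 replicate 1 the number was 4619 of 14676, and without AA147 replicate 3 it was 3992 of 14663. The larger counts under library totals and RPKM came with this shift over all genes and are not read as a result about the lists. Against day 1, the pathway genes that fell in AA147 cultures were 5, and 8 with library totals, on log2 RPKM or without replicate 1 of both groups, and the targets that fell in RP22 cultures were 1 and up to 3. Over all genes tested 5559 of 13761 fell in AA147 cultures, 7416 with library totals, and 5685 of 13833 without replicate 1 of both groups. In RP22 cultures 5129 of 14558 fell, and 5595 of 14724 without replicate 1 of both groups.

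As shares of summed reads, without scaling to length, TGFB1 held 11.2% in AA147 and 28.1% in RP22 cultures, TGFB2 held 87.8% in AA147 cultures, 68.2% in RP22 cultures and 8.50% at day 1, and TGFB3 held 1.03% in AA147 and 3.75% in RP22 cultures.

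Libraries with the same replicate number were not taken as pairs. Their deviations from the group means correlated at 0.22, 0.19 and 0.05 between AA147 and RP22, against -0.24 to 0.16 for unlike numbers. In the comparisons with day 1 they correlated at -0.06 to 0.07, against -0.12 to 0.07 for unlike numbers. These values do not settle whether the day 13 libraries were paired. With the replicate block 8 members passed in AA147 against RP22 and 9 in each comparison with day 1, while pathway genes that fell numbered 9 and targets that fell numbered 5 in AA147 against RP22. Over all 14293 genes tested there, 4126 rose and 4548 fell with the block. Low day 1 counts limit TGFB2, TGFB3 and LTBP2.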

Other observations

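Further marker lists cover other cell types, as summed CPM per library. Neural markers (SOX1, PAX6, OTX2, DCX, STMN2 and ELAVL4) stood at 6.08 to 7.47 CPM in AA147 libraries and 544 to 762 CPM in RP22 libraries, against 95.8 to 189 CPM at day 1. OTX2 carried most of the day 1 sum, at 114 ± 35.0 CPM, and was lower in RP22 cultures, at 58.9 ± 27.3 CPM (SD, n = 3 each). The other neural markers averaged more in RP22 cultures than at day 1. Endothelial markers (PECAM1, CDH5, KDR, TEK and VWF) stood at 5.54 to 22.3 CPM in AA147 libraries, with PECAM1 without reads, and at 85.3 to 179 CPM in RP22 libraries, against 38.0 to 58.2 CPM at day 1. KDR carried most of this day 1 sum, at 44.5 ± 11.9 CPM, and averaged 86.9 ± 38.1 CPM in RP22 cultures.

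Hepatic and yolk sac markers (AFP, APOA1, APOB, TTR and ALB) stood at 0.970 to 3.14 CPM in AA147 libraries and 80.8 to 133 CPM in RP22 libraries, against 5.31 to 8.97 CPM at day 1, with TTR without reads in the AA147 and day 1 groups. Blood and platelet markers stood at 1.77 to 2.22 CPM in AA147 libraries, where PTPRC, SPI1, PF4 and HBZ had no reads, and at 3.99 to 4.98 CPM in RP22 libraries, against 4.58 to 4.79 CPM at day 1, with HBZ without reads in both. Their part in the levels of the TGF-beta genes was not tested.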
